A study of Mus musculus with 12 samples.

Results

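Cytokine and growth factor genes of the macrophage were examined in thioglycolate-elicited peritoneal macrophages of mice of 2 genotypes on 2 diets. The set was chosen by name: Tnf, Il1b, Il1a, Il1rn, Il18, Il10, Tgfb1, Csf1, Vegfa and Igf1, 10 genes in all. Of these, 9 are among the 12339 genes of the deposited count table and were analysed in every library. Il10 is not among the listed genes and was not analysed here.

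All mice, controls included, received the same injection at 8 weeks of age, so that treatment was shared by every group. One set of WT mice and one set of meKO mice then ate a high-fat diet (HFD, a Western-type diet) and the others stayed on chow; cells were lavaged from the peritoneum 4 weeks later, after recruitment with sterile thioglycolate. The meKO line is read here as a myeloid knockout of Prkce, the gene of protein kinase C epsilon, from the series title; the labels used here do not name the recombinase line. Each combination of genotype (WT or meKO) and diet (chow or HFD) had 3 libraries analysed here, 12 in all, although the labels describe 4 animals of each genotype on HFD, and nothing in them says which libraries share a litter or a day. The cells are a recruited, mixed lavage population, and in bulk RNA fewer cells of a type and less RNA per cell cannot be told apart.

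Macrophages tune inflammation through secreted proteins with opposed roles. Interleukin 1 alpha and beta signal through the same receptor, and the product of Il1rn, the interleukin 1 receptor antagonist, occupies that receptor without signaling. Interleukin 1 beta and interleukin 18 are made as precursors that caspase-1 cleaves, and tumor necrosis factor is shed from the cell surface by the protease ADAM17. The growth factors act on other cells and on the macrophage itself: Csf1 encodes the ligand of the macrophage survival receptor CSF1R, Vegfa an angiogenic factor, Igf1 a trophic factor and Tgfb1 a latent factor that restrains inflammation and drives matrix repair.

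Total counts per library ranged from 25844958 to 37282772. Prkce averaged 3.08 ± 1.03 CPM (counts scaled to library size with TMM factors) over the 6 WT libraries and 1.37 ± 0.347 CPM over the 6 meKO libraries (SD), which did not overlap (two-sided exact permutation p = 0.00216). In the model across genes the difference averaged over diets was -1.13 ± 0.22 on the log2 scale (SE) and just missed the threshold (edgeR adjusted p = 0.0588). It did not pass on chow (0.0794) or on HFD (0.989) alone. Which part of the gene the line lacks is not given in the sources used here. All 12 macrophage markers sought, among them Adgre1, Csf1r and Cd68, were listed and none was at 0 in any library, although Lyz2, the lysozyme gene, stood at 69.3 CPM in meKO chow replicate 2, at 16293 to 21310 CPM in the other meKO libraries and at 30482 to 53835 CPM in WT. Markers of neutrophils, lymphocytes and mast cells were present too. Of 9 listed B cell markers 8 fell and 1 rose on HFD averaged over genotypes, where 15.3% of all genes fell and 14.9% rose. In the same contrast 6 of the 12 macrophage markers rose and 4 fell. The summed CPM of the B cell markers ran from 415 to 486 in WT chow and 394 to 397 in WT HFD. In meKO it overlapped, at 380 to 517 on chow and 379 to 501 on HFD. Long transcripts read relatively higher in WT chow replicates 1 and 2: across 11532 genes, rho between length and how far a gene stood from its mean was 0.60 and 0.65 there, and -0.43 to 0.12 in the other libraries. Values corrected for transcript length and GC content are therefore given where they change a call.

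Upstream sequences are shown for 3 members whose values carry the results below: Il1rn, the member that passed the test for diet, Il1b, its opponent at the receptor, and Csf1, whose HFD levels lay on opposite sides of chow in the 2 genotypes. Each is the 250 bases before a RefSeq transcript start (build GRCm38.p6), 5′ to 3′ on the gene's strand. All 9 listed members had an entry, with 12 starts in all, and Il1rn had 3; the first and the second are shown, since counts per gene do not tell which start was used. Capitals mark matches, on either strand, to the AP-1 motif TGANTCA or the NF-kB motif.
Il1rn, first start, plus strand, chr2:24336610-24336859: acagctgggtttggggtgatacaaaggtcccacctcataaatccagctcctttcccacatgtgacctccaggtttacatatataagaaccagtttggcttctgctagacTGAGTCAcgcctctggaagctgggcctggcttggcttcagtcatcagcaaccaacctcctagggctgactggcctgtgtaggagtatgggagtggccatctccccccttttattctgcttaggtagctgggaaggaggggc
Il1rn, second start, plus strand, chr2:24345041-24345290: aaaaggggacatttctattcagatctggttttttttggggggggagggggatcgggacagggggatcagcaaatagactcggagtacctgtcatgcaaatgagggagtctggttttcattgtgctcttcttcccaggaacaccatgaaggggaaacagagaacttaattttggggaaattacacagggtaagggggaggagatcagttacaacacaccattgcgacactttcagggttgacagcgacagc
Il1b, minus strand, chr2:129371140-129371389: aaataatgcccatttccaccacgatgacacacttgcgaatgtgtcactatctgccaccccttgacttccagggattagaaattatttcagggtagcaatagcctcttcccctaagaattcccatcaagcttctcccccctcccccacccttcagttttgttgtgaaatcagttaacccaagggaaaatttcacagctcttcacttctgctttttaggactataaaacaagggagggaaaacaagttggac
Csf1, minus strand, chr3:107760470-107760719: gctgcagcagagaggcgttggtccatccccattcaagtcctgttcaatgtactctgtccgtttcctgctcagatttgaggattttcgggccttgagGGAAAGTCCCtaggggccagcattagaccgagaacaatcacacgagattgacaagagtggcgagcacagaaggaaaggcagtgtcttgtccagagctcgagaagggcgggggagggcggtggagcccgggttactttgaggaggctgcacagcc
The first Il1rn window held an AP-1 match 141 to 135 bases before the start, a motif found in 6.75% of 32851 windows of the same length. The Csf1 window held an NF-kB match on the opposite strand 154 to 145 bases before the start, found in 7.25% of windows. The windows were also searched for STAT (TTCNNNGAA, 7.02% of windows), PU.1 (GAGGAA, 23.3%), CRE (TGACGTCA, 1.55%), HRE (ACGTG, 16.6%) and LXR DR4 (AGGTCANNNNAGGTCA, 0.0152%) motifs, and these letters did not occur in the 4 windows shown. Windows not shown also held matches: AP-1 in those of Il1a and Igf1, and NF-kB in those of Tgfb1 and Vegfa. None of these genes passed the edgeR test for diet below. A match describes the letters of the window and no more.

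The 9 genes spanned a wide range of levels. Per kilobase of the longest GENCODE transcript, the median over the 12 libraries was highest for Tgfb1, at 94 CPM per kb (range 65.3 to 106), and for Il1rn, at 85.4 CPM per kb (48.3 to 214). Il1a followed at 30.4 CPM per kb (16.4 to 37.6), then Il18 at 19 (14.3 to 26.7), Igf1 at 14 (1.59 to 21.8) and Vegfa at 6.24 (3.31 to 12.1). The lowest were Il1b at 2.97 CPM per kb (1.33 to 4.61), Tnf at 1.80 (1.26 to 3.17) and Csf1 at 0.785 (0.539 to 1.05). The ranges of each pair of neighbours in that order overlapped, except those of Il1rn and Il1a and those of Tnf and Csf1. The genes of the classical inflammatory cytokines Tnf and Il1b thus stood low in the order, at 64 to 173 and 66 to 205 counts per library, and the gene of the interleukin 1 antagonist near the top, at 3566 to 15050 counts. Among all 11532 genes with a length, mean CPM per kb placed Il1rn at the 95.6th percentile. Il1a stood at the 83.8th, Il18 at the 77.8th, Il1b at the 35.9th and Tnf at the 27.8th.

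**Figure D1:**
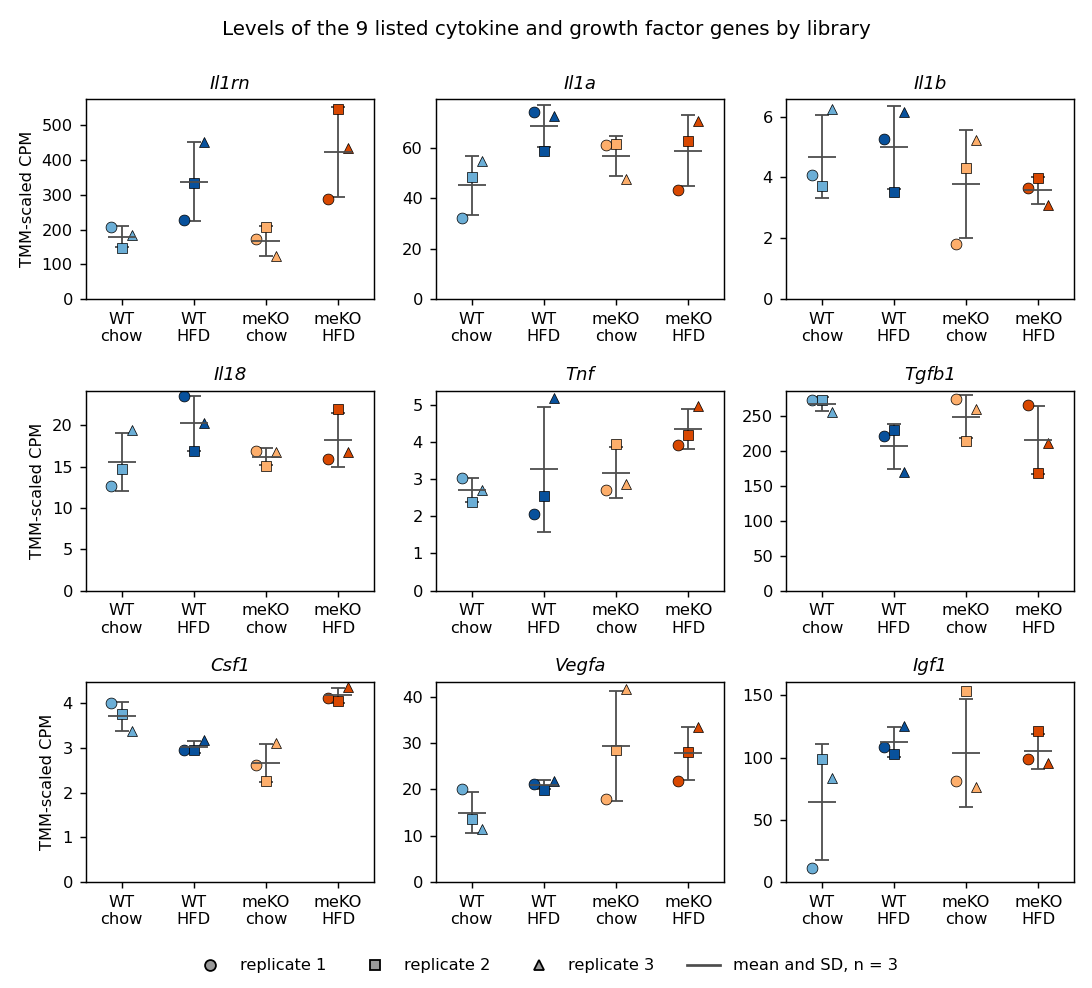
TMM-scaled CPM of the 9 listed genes (y axis, from 0) in the 4 groups (x axis); symbols are libraries and bars are mean and SD of 3. Il1rn was higher in every HFD library than in every chow library, Csf1 was lower on HFD in WT and higher on HFD in meKO without overlap, and Igf1 of WT chow replicate 1 lay far below all other libraries.

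Diet was asked first, HFD against chow, in each genotype and averaged over both. Il1rn was the member that passed. In WT, 1 of the 9 members was called, against 21.3% of all genes, and averaged over genotypes 1 of 9, against 30.2%; in meKO 0 of 9 passed, against 0.105%. With 9 members such counts cannot tell the members' share apart from that of all genes. The shares of all genes themselves hung on single libraries. Without WT HFD replicate 3, 96 of 12339 genes were called in WT, without WT chow replicate 3, 4921, and with all libraries 2634. At an unadjusted p under 0.05 in edgeR there were 3 of 9 members in WT (against 39.4% of all genes), 2 in meKO (against 15.9%) and 4 averaged (against 43.7%). The members' median log2 fold change was 0.38 in WT and 0.05 in meKO, where that of all genes was -0.03 and -0.01.

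Il1rn (Entrez gene 16181, chr2:24336860-24351491 of GRCm38.p6) had 209, 147 and 185 CPM in the WT chow libraries, replicates 1, 2 and 3 in that order here and throughout, against 228, 335 and 453 CPM in WT HFD. In meKO it stood at 173, 208 and 123 CPM on chow and 289, 546 and 436 CPM on HFD. No chow library of either genotype reached the lowest HFD library, and the HFD libraries spread more widely than the chow libraries. The rise in WT was 0.91 ± 0.27 on the log2 scale (SE; edgeR adjusted p = 0.034), a 1.88-fold change, and averaged over genotypes it was 1.12 ± 0.19 (adjusted p = 0.00444), a 2.18-fold change. In meKO the value was 1.33 ± 0.27, or 2.52-fold, and missed the threshold (edgeR adjusted p = 0.0879), although the meKO value was the larger of the 2. The difference between the genotypes' diet effects was 0.42 ± 0.38 (edgeR interaction adjusted p = 0.849). The averaged rise passed under each of its 19 alternatives (adjusted p from 3.99e-07 to 0.0146). The call in WT was lost after the length and GC correction (0.69, edgeR adjusted p = 0.0957), which called 12.6% of all genes in that contrast. It was also lost on leaving out WT chow replicate 1 (adjusted p = 0.0971), 2 (0.134) or 3 (0.0541) or WT HFD replicate 2 (0.0632) or 3 (0.152). DESeq2 called Il1rn in WT, where it called 28.5% of genes, and in meKO (adjusted p = 2.86e-04), where it called 1.84%.

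Summed levels of markers of other peritoneal cells are given beside the Il1rn values. The summed CPM of 10 markers of resident large peritoneal macrophages, all listed, ran from 524 to 1523 in WT chow and 1649 to 2734 in WT HFD, and from 1000 to 1468 in meKO chow and 1203 to 2481 in meKO HFD. The 3 highest sums were 2734, 2481 and 2400 CPM, in WT HFD replicate 3 and meKO HFD replicates 2 and 3. These libraries had the 3 highest Il1rn levels, and also the 3 lowest rho values with transcript length (-0.41, -0.43 and -0.38). Elsewhere the order differed. WT chow replicate 1 had the lowest sum, 524 CPM, and the highest Il1rn level on chow, 209 CPM. MeKO HFD replicate 1 (sum 1203 CPM) had 289 CPM of Il1rn, above the 228 CPM of WT HFD replicate 1 (sum 1649 CPM). The part of transcript length in the Il1rn levels was not tested. In the averaged contrast 2 of the resident macrophage markers rose, 1 fell and 7 did not pass. That share was close to the 30.2% of all genes called. The summed CPM of 11 of 12 mesothelial and stromal markers ran from 52.8 to 93.3 in WT chow and 96.5 to 142 in WT HFD, and from 52.9 to 97.7 in meKO chow and 114 to 144 in meKO HFD. None of the listed markers of either set was at 0 in a library, Krt18 is not among the listed genes, and the part of these cells in the Il1rn rise was not tested.

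The agonists of the same receptor did not pass. Il1a (Entrez gene 16175, chr2:129299609-129310186) stood at 32.3, 48.5 and 55 CPM in WT chow and at 74.3, 59 and 72.7 CPM in WT HFD, with no overlap. Its log2 fold change in WT was 0.60 ± 0.21, just short of the threshold (edgeR adjusted p = 0.0508; range over its alternatives 0.00278 to 0.223), and 6 of 20 alternatives called it. In meKO the libraries on the 2 diets overlapped, at 61.2, 61.6 and 47.7 CPM on chow and 43.3, 62.9 and 70.8 CPM on HFD (0.05 ± 0.20, edgeR adjusted p = 0.92). Il1b (Entrez gene 16176, chr2:129364569-129371164) stood at 4.07, 3.72 and 6.25 CPM in WT chow and 5.28, 3.51 and 6.17 CPM in WT HFD. In meKO it stood at 1.81, 4.32 and 5.22 CPM on chow and 3.66, 3.97 and 3.10 CPM on HFD. The groups overlapped in every comparison of Il1b, and its averaged diet value was 0.01 ± 0.23 (edgeR adjusted p = 0.977).

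Il18 (Entrez gene 16173, chr9:50554700-50581841) encodes the other cytokine released by caspase-1. It stood at 12.6, 14.8 and 19.5 CPM in WT chow and 23.6, 16.9 and 20.3 CPM in WT HFD, which overlapped, and its value was 0.38 ± 0.18 (edgeR adjusted p = 0.131). In meKO it ran from 15 to 16.9 CPM on chow and from 16 to 22 CPM on HFD. With 885 bases its transcript is the shortest among the members, and after the length and GC correction its diet value turned to -0.18 in WT, in meKO and averaged (edgeR adjusted p = 0.368, 0.473 and 0.170). Tnf (Entrez gene 21926, chr17:35199367-35202007) stood at 3.03, 2.38 and 2.71 CPM in WT chow and 2.07, 2.55 and 5.2 CPM in WT HFD. A single library, WT HFD replicate 3, set its direction in WT, where the value of 0.28 ± 0.30 became -0.22 without it. In meKO, Tnf stood at 2.71, 3.96 and 2.87 CPM on chow and 3.93, 4.2 and 4.96 CPM on HFD, overlapping narrowly (0.45 ± 0.29, edgeR adjusted p = 0.44).

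Tgfb1 (Entrez gene 21803, chr7:25687002-25705077) was the member with the lowest averaged diet value. It stood at 273, 272 and 255 CPM in WT chow and 221, 229 and 169 CPM in WT HFD, without overlap, and at 273, 214 and 259 CPM in meKO chow and 265, 168 and 211 CPM in meKO HFD, which overlapped. Its log2 fold change was -0.37 ± 0.16 in WT (edgeR adjusted p = 0.104) and -0.29 ± 0.11 averaged (adjusted p = 0.0664), and 3 of 19 alternatives called the averaged value. Groups did not overlap by diet for 5 of the 9 members in WT, against 39.3% of all genes, and for 2 of 9 in meKO, against 19.7%.

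Csf1 (Entrez gene 12977, chr3:107741048-107760469) lay on opposite sides of chow in the 2 genotypes, at low depth (83 to 151 counts per library). It stood at 4.02, 3.76 and 3.37 CPM in WT chow and at 2.95, 2.96 and 3.19 CPM in WT HFD. In meKO it stood at 2.63, 2.25 and 3.11 CPM on chow and at 4.13, 4.04 and 4.37 CPM on HFD. All WT HFD libraries thus lay below all WT chow libraries, and all meKO HFD libraries above all meKO chow libraries. For diet, the WT value was -0.29 ± 0.17 (edgeR adjusted p = 0.218) and the meKO value 0.65 ± 0.17 (adjusted p = 0.151). The difference between them was 0.95 ± 0.24, with an unadjusted p of 0.00173 and an adjusted p of 0.679 in edgeR, so it did not pass; 0.0162% of all genes did, and no member. After the length and GC correction the WT value was -0.01 and the meKO value 0.80 (edgeR adjusted p = 0.984 and 0.0592), and the averaged value of 0.40 was called (adjusted p = 0.0267) where 23.8% of all genes were. DESeq2 called the meKO value (adjusted p = 0.0419).

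**Figure D2:**
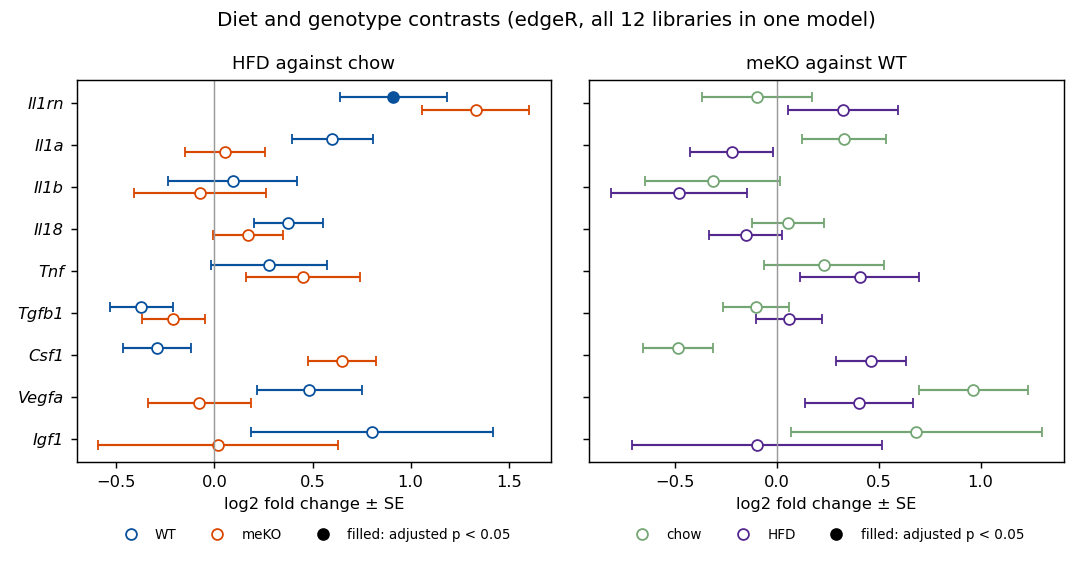
Log2 fold changes (x axis) with SE for the 9 genes, HFD against chow by genotype on the left and meKO against WT by diet on the right; filled points passed an edgeR adjusted p of 0.05. The one filled point is Il1rn for diet in WT (0.91), and the 2 Csf1 points lie on opposite sides of 0 in both panels.

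Igf1 (Entrez gene 16000, chr10:87858265-87937047) varied most through a single library. WT chow replicate 1 stood at 11.2 CPM (396 counts), while replicates 2 and 3 stood at 98.7 and 83.4 CPM, WT HFD at 108, 103 and 126 CPM, meKO chow at 81.1, 153 and 76 CPM and meKO HFD at 98.4, 121 and 95.5 CPM. The diet value in WT was 0.80 ± 0.62 (edgeR adjusted p = 0.358) and fell to 0.32 ± 0.25 without that library. The same library had the lowest sum of resident macrophage markers, 524 CPM, where the others ranged from 1000 to 2734 CPM. Its rho with transcript length was 0.60, and Igf1 has the longest transcript among the members (7052 bases). The part of either in the Igf1 value was not tested. Vegfa (Entrez gene 22339, chr17:46016993-46032377) stood at 20, 13.5 and 11.4 CPM in WT chow and 21.2, 20 and 21.8 CPM in WT HFD, nearly without overlap, and its diet value in WT was 0.48 ± 0.27 (edgeR adjusted p = 0.191). In meKO it stood at 17.9, 28.6 and 41.6 CPM on chow and 21.9, 28.2 and 33.4 CPM on HFD, and the diets overlapped (-0.08 ± 0.26, adjusted p = 0.908).

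Genotype was compared next, meKO against WT on each diet and averaged over diets. No member passed in edgeR on chow, where 0.081% of all genes did, on HFD, where the share was also 0.081%, or averaged, where it was 0.17%. At an unadjusted p under 0.05 there were 2 of 9 members on chow (against 19.8% of all genes), 1 on HFD (against 4.56%) and 1 averaged (against 17.7%). Groups did not overlap for 1 of the 9 members on chow, against 17.1% of all genes, and for 2 of 9 on HFD, against 10.3%. The summed CPM of the 12 macrophage markers also differed by genotype, at 40532 to 63046 in WT and 10863 to 31286 in meKO. Without Lyz2 the sum of the other 11 ran from 9210 to 11551 CPM in WT and 9977 to 10943 CPM in meKO, which overlapped. The part of Lyz2 in the genotype values of the members was not tested.

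Vegfa had the largest genotype value among the members. The WT chow libraries reached 20 CPM and the lowest meKO chow library had 17.9 CPM, so the groups overlapped by 1 library on each side, while on HFD every meKO library lay above every WT library. Its log2 fold change was 0.96 ± 0.27 on chow (edgeR adjusted p = 0.108), 0.40 ± 0.26 on HFD (0.999) and 0.68 ± 0.19 averaged (0.149). DESeq2 called it on chow (adjusted p = 0.015, where it called 5.54% of genes) and averaged (0.0229, where it called 2.97%). The chow value fell to 0.63 without meKO chow replicate 3, the library with the highest Vegfa level.

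Csf1 was lower in all 3 meKO chow libraries than in all WT chow libraries (-0.48 ± 0.17, edgeR adjusted p = 0.163) and higher in all 3 meKO HFD libraries than in all WT HFD libraries (0.46 ± 0.17, adjusted p = 0.952). These are the libraries of the diet comparison above and add no independent support. The IL-1 genes gave smaller values: Il1rn -0.10 ± 0.27 on chow and 0.32 ± 0.27 on HFD, Il1a 0.33 ± 0.20 and -0.22 ± 0.20, and Il1b -0.31 ± 0.33 and -0.48 ± 0.33. For Il1b on chow, leaving out meKO chow replicate 1, its lowest library at 1.81 CPM, gave 0.03. Tnf gave 0.23 ± 0.30 on chow and 0.41 ± 0.29 on HFD, Il18 0.06 ± 0.18 and -0.15 ± 0.18, Tgfb1 -0.10 ± 0.16 and 0.06 ± 0.16, and Igf1 0.69 ± 0.62 and -0.10 ± 0.61. The edgeR adjusted p was at least 0.108 for every member on chow and at least 0.952 on HFD.

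The pathways around the members were then read from 10 lists of 177 distinct genes, of which 149 are listed in the table. Averaged over genotypes, 23 of the 149 rose on HFD (14.9% of all genes did) and 29 fell (15.3%). In WT alone 17 rose (against 9.5%) and 25 fell (against 11.8%). In meKO alone 0 passed (against 0.105%). The WT counts hung on single libraries: 1 rose and 2 fell without WT chow replicate 1, 3 and 5 without WT chow replicate 2, 4 and 6 without WT HFD replicate 1, 7 and 20 without WT HFD replicate 2, 1 and 1 without WT HFD replicate 3, and 24 and 44 without WT chow replicate 3. After the length and GC correction 14 rose and 13 fell in WT and 25 and 21 averaged, and with library totals 11 rose and 32 fell in WT. In the averaged contrast, to which the counts per list below belong, leaving out 1 library moved the count by over 1.5 times for 9 of the 10 lists, all but the VEGF and hypoxia list. Without WT chow replicate 1 the calls went from 6 to 3 for IL-1 processing, 2 to 1 for TNF, 6 to 3 for NF-kB, 3 to 1 for IL-10, 5 to 3 for colony stimulating factors and 11 to 7 for other cytokines, and without WT HFD replicate 3 to 2, 1, 3, 1, 3 and 7. Without WT chow replicate 3 they rose from 3 to 8 for IL-1 receptors, 2 to 4 for TNF, 3 to 5 for IL-10 and 5 to 9 for IGF. WT chow replicate 2, WT HFD replicate 1 and each meKO library but meKO chow replicate 2 and meKO HFD replicate 3 moved at least 1 list too, to between 1 and 11 calls.

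The receptors and binding proteins of interleukin 1 and interleukin 18 came first. Of 14 genes of IL-1 and IL-18 receptors and signaling, 3 rose (against 14.9% of all genes), 0 fell (against 15.3%) and 11 did not pass in the averaged contrast, and the median log2 fold change was 0.01 (-0.03 for all genes). Il1r1, the signaling receptor, rose by 0.89 ± 0.19 (edgeR adjusted p = 0.00824), from 2.11 ± 0.571 to 3.20 ± 0.288 CPM in WT and from 1.77 ± 0.487 to 4.10 ± 1.02 CPM in meKO (SD, n = 3). Il1r2, a decoy receptor for interleukin 1, rose by 0.76 ± 0.24 (edgeR adjusted p = 0.0319) and did not pass after the length and GC correction (0.148). Its level was very low, from 0.339 ± 0.119 to 0.753 ± 0.158 CPM in WT and from 0.800 ± 0.131 to 1.01 ± 0.261 CPM in meKO. Il18bp, which encodes a secreted inhibitor of interleukin 18, rose by 0.70 ± 0.15 (adjusted p = 0.00792), from 6.98 ± 1.25 to 12.7 ± 2.60 CPM in WT and from 9.28 ± 2.72 to 13.6 ± 0.878 CPM in meKO. Of 10 genes of IL-1 and IL-18 processing 4 rose and 2 fell: Casp4 rose by 0.47 ± 0.10 (adjusted p = 0.00786), while the inflammasome sensors Nlrc4 (-0.47 ± 0.12, 0.0166) and Nlrp1b (-0.80 ± 0.23, 0.02) fell. After the length and GC correction 1 of the 4 risen and both fallen genes passed, and Casp4 did not (edgeR adjusted p = 0.166). The processing list then had 1 gene called higher and 3 called lower.

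TNF and NF-kB genes were mixed in the averaged contrast, in which 14.9% of all genes rose and 15.3% fell. Of 12 TNF receptor, shedding and signaling genes 2 fell and 0 rose: Tnfrsf1b, a TNF receptor, was at -0.38 ± 0.10 (edgeR adjusted p = 0.0132; -0.22 after the length and GC correction), and Adam17, the TNF sheddase, at -0.28 ± 0.09 (0.031), which did not pass after the length and GC correction (0.0774). Of 20 genes of NF-kB and cytokine mRNA decay 3 rose and 3 fell. Dusp1, a MAP kinase phosphatase, rose by 0.82 ± 0.19 (adjusted p = 0.00974), and Zfp36l1, a protein that promotes decay of AU-rich mRNAs, fell by 0.65 on the log2 scale (SE 0.12, adjusted p = 0.00467). Hnrnpd, another AU-rich mRNA binder, was at -0.49 ± 0.10 (adjusted p = 0.00786). In the IL-10 list of 10 listed genes 0 rose and 3 fell, among them Maf, a transcription factor of Il10 (-0.64 ± 0.08, adjusted p = 8.37e-04). Tyk2 (-0.45 ± 0.13) and Stat3 (-0.42 ± 0.13) fell too, and neither passed after the length and GC correction (edgeR adjusted p = 0.215 and 0.155).

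In the growth factor lists calls went both ways in the averaged contrast, in which 14.9% of all genes rose and 15.3% fell. Of 21 listed TGF-beta genes 1 rose and 4 fell (median -0.13), and after the length and GC correction 3 rose and 3 fell. Tgfbi, a matrix protein induced by TGF-beta, was at -0.83 ± 0.13 (edgeR adjusted p = 0.00392), Tgfbr2, the type II receptor, at -0.59 ± 0.10 (0.00418) and Furin, which cleaves the TGF-beta precursor, at -0.57 ± 0.12 (0.00788). After the length and GC correction Tgfbr2 was at -0.34 and Furin at -0.25, still called averaged but not in WT alone (edgeR adjusted p = 0.115 and 0.134). Of 9 colony stimulating factor genes 1 rose and 4 fell, including Grb2 (-0.36 ± 0.07, 0.00467) and Csf3r (-0.40 ± 0.10, 0.0116; -0.27 corrected), and Inpp5d (-0.36 ± 0.09, 0.0111), which did not pass after the correction (0.115). Of 17 VEGF and hypoxia genes 3 rose and 3 fell: the glycolytic genes Ldha (0.53 ± 0.07, 0.00164) and Pgk1 (0.50 ± 0.10, 0.00693; 0.33 corrected) rose, and Epas1, which encodes a hypoxia-inducible factor, fell (-0.74 ± 0.12, 0.00389; -0.48 corrected). Of 11 IGF genes 2 rose and 3 fell. Igfbp7, an IGF-binding protein, rose by 1.2 ± 0.23 (0.00585), and Igfbp4, another, (-0.68 ± 0.11, 0.00415) and Insr, the insulin receptor, (-0.59 ± 0.14, 0.0103; -0.36 corrected) fell. Igfbp7 was at 1.65 ± 0.331 CPM in WT chow and 3.48 ± 0.693 CPM in WT HFD, and at 2.01 ± 0.922 and 5.11 ± 1.27 CPM in meKO. The sum of mesothelial and stromal markers given above was likewise higher on HFD, and the part of those cells was not tested.

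**Figure D3:**
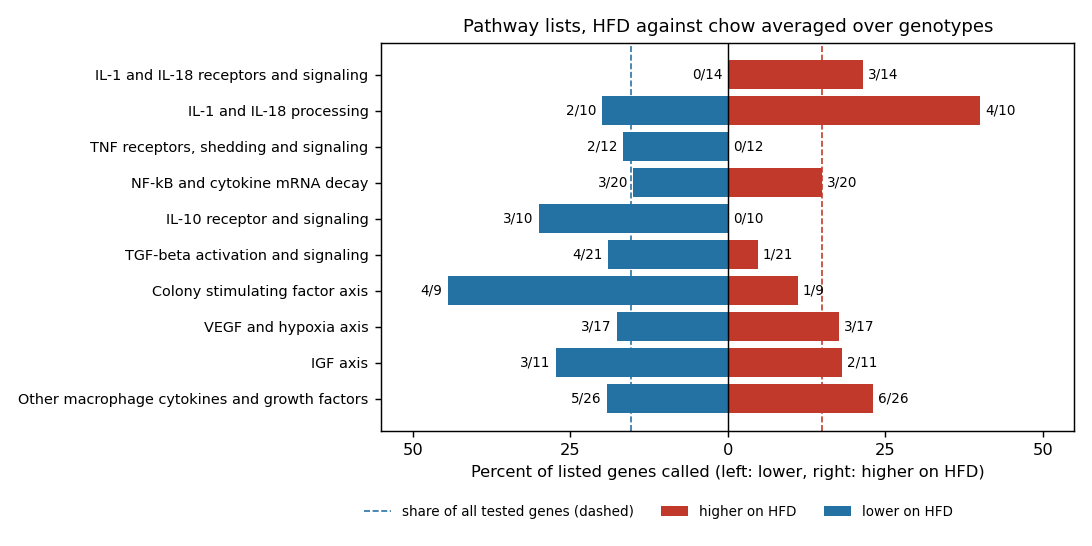
Percent of the listed genes of 10 pathway lists (y axis) that were called higher (right) or lower (left) on HFD, averaged over genotypes (edgeR adjusted p under 0.05); labels give called over listed genes, and dashed lines the shares of all genes, 14.9% and 15.3%. The IL-1 processing list has 4 of 10 higher and 2 lower, and the colony stimulating factor list 1 of 9 higher and 4 lower. The length and GC correction gave 1 higher and 3 lower for IL-1 processing, which turned its leaning. For colony stimulating factors it gave 1 higher and 2 lower, a smaller leaning in the same direction.

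Of 26 other listed cytokine and growth factor genes, 6 rose (against 14.9% of all genes) and 5 fell (against 15.3%) in the averaged diet contrast. Mif, macrophage migration inhibitory factor, rose by 0.76 ± 0.11 (edgeR adjusted p = 0.00287; 0.44 after the length and GC correction), from 14.1 ± 1.32 to 26 ± 3.27 CPM in WT and from 19.3 ± 3.85 to 29.9 ± 4.17 CPM in meKO. Metrnl, a secreted factor, rose by 0.51 ± 0.11 (0.00766), and Il16 was at -0.42 ± 0.09 (0.00887), which did not pass after the length and GC correction (0.256). By genotype, 2 genes of all the lists were called in the averaged contrast, against the 0.17% of all genes, and both were lower in meKO; they were singled out after their values were seen. Pdgfb, the B chain of platelet-derived growth factor, stood at 19.9, 23.3 and 21 CPM in WT chow and 23.9, 30.1 and 27.4 CPM in WT HFD. In meKO it stood at 16.3, 9.74 and 10.2 CPM on chow and 14.6, 12.1 and 13.5 CPM on HFD, so that the highest meKO library was still under the lowest WT library. Its averaged log2 fold change was -0.92 ± 0.13 (edgeR adjusted p = 0.00938) and was called under each of 19 alternatives (adjusted p from 1.63e-08 to 0.041). On single diets it was -0.82 ± 0.18 on chow (adjusted p = 0.0794) and -1.01 ± 0.18 on HFD (0.0551). After the length and GC correction it was called on HFD (-1.03, edgeR adjusted p = 0.0146) but not on chow (-0.79, 0.102). Maf was at -0.44 ± 0.08 averaged (edgeR adjusted p = 0.0356) and passed in 9 of 19 alternatives, but not after the length and GC correction (-0.27, 0.134).

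The genes whose pattern over the 12 libraries was most like that of Il1rn were Hnrnpab (Pearson's r of log2 CPM 0.943), Asns (0.940) and Tpm1 (0.937). They encode an RNA-binding protein, asparagine synthetase and a tropomyosin. These r describe 12 libraries that share diet and depth differences and carry no test. Asns averaged 1.75 CPM on chow and 3.74 CPM on HFD in WT, and 2.08 and 4.42 CPM in meKO.

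**Figure D4:**
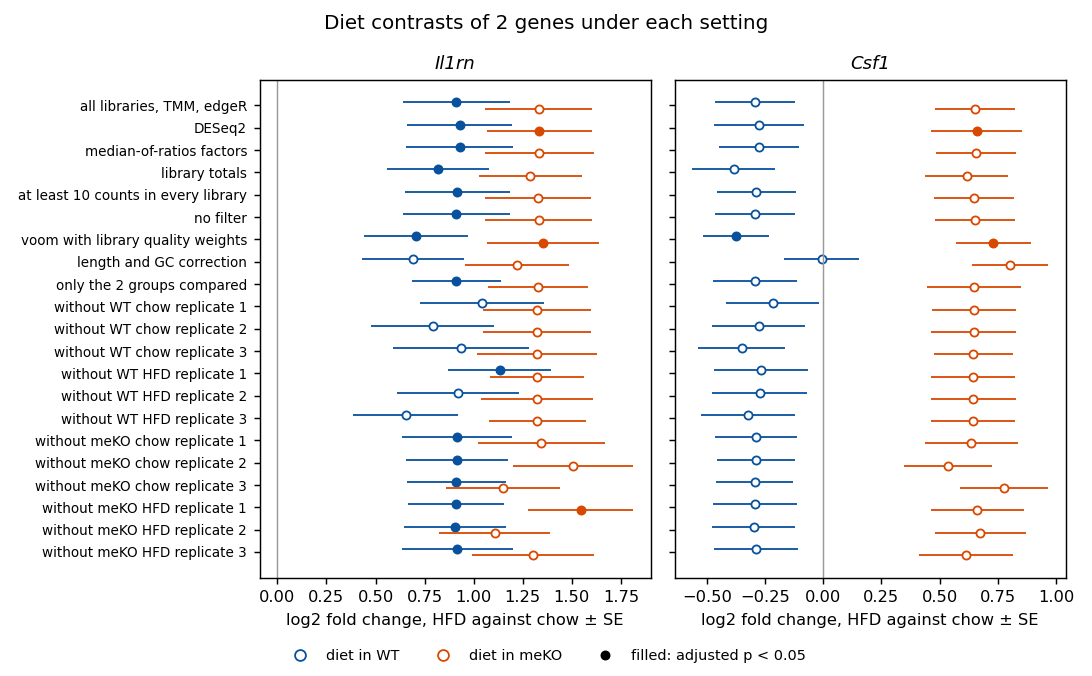
Diet log2 fold changes (x axis) with SE of Il1rn and Csf1 under each processing setting (y axis), in WT and meKO; filled points passed an adjusted p of 0.05. Il1rn lies above 0 in every setting (0.65 to 1.13 in WT, 1.11 to 1.54 in meKO), and Csf1 lies below 0 in WT (-0.38 to -0.01) and above 0 in meKO (0.54 to 0.80).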

How the data were processed

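RNA of thioglycolate-elicited peritoneal macrophages was sequenced (Trizol, TruSeq libraries, per the labels). The authors deposited whole-number counts per Entrez gene for 12 libraries; per the submitters' processing notes the build was mm10 and DESeq2 was used, and the aligner, counter and strand setting are not given in the sources used here. Without strand, reads of overlapping genes cannot be told apart. Every listed gene reached at least 0.501 CPM in 6 libraries, so the table looks filtered on low values; 186 genes without a symbol hold 0.440% of counts. Columns were matched by title, replicate numbers follow sample order, and p-values measure only the spread between libraries, since the labels do not say that each came from its own mouse.

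Counts were tested with edgeR 4.0.16 (R 4.3.3): TMM factors, filterByExpr (which kept all 12339 genes), robust quasi-likelihood F tests in 1 model of 4 group means, two-sided, Benjamini-Hochberg over all genes, threshold 0.05; SE is the log2 fold change over the square root of F. No replicate pair looked like copies of 1 library (chi-square per degree of freedom at least 16.9). Alternatives were DESeq2 1.42.0, voom with library quality weights (limma 3.58.1), 2 other scalings, 2 other filters, a length and GC correction, the 2 groups alone and each library left out. The procedure was tested on simulated data. Transcript length and GC content came from the longest GENCODE transcript, known for 93.5% of genes; coordinates and upstream sequences are RefSeq's (GRCm38.p6, the assembly of mm10).

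The agent injected into all mice is not reported here. The members and lists were chosen with earlier results of these data known. All members are described; from each list, up to 3 called genes with the smallest adjusted p per simple contrast or averaged diet contrast could be named, and the 3 genes most like a called member by Pearson's r.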

Additional observations from a re-analysis of the deposited data

Results flagged for a closer look

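Csf1 was the one member whose libraries moved fully apart in opposite directions. By diet its log2 fold change was -0.29 in WT, with every HFD library below every chow library, and 0.65 in meKO, with every HFD library above every chow library. After the length and GC correction the WT value was -0.01 (edgeR adjusted p = 0.984) and the meKO value 0.80 (adjusted p = 0.0592), so under that setting the WT value was near 0. By genotype, in the same libraries, it was -0.48 on chow and 0.46 on HFD, again without overlap. The test of the difference itself did not pass (edgeR interaction adjusted p = 0.679; voom with library quality weights adjusted p = 0.0219, range over the alternatives 0.0219 to 0.999). Such opposite separation was seen by diet for 22 of 12339 genes (0.178%) and by genotype for 38 (0.308%).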

How the results depend on the processing

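The number of members called moved with the setting. For genotype on chow it was 0 and became 1 with DESeq2 (Vegfa) and 1 with voom and library quality weights (Csf1); averaged over diets it went from 0 to 1 (DESeq2) and 2 (voom). For diet in WT it was 1 and became 2 with DESeq2, median-of-ratios factors or a minimum of 10 counts (Il1a added), 0 after the length and GC correction and 5 with voom; leaving out 1 library gave 0 to 2. For diet in meKO it was 0 and became 2 with DESeq2 and 2 with voom (Il1rn and Csf1), and leaving out 1 library gave 0 to 1. The interaction went from 0 to 1 with voom (Csf1). Averaged diet went from 1 to 4 with voom and 2 with the length and GC correction, and 1 to 3 on leaving out 1 library; Il1rn was called each time. The Prkce ratio of meKO to WT kept its direction, and its call in the exact permutation test, with each library left out and under both other scalings. In edgeR with all libraries Prkce was not called (averaged genotype, adjusted p = 0.0588).

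Of 63 member values, 40 kept their sign in every setting and 23 turned in at least 1; no turned value was called in the setting where it turned, and the largest of them was 0.377 to begin with. The cause of each turn was not tested. With the length and GC correction Il18 gave -0.25 for genotype on chow and -0.18 in each diet contrast, Il1b -0.29 for diet in WT and averaged and 0.0047 in the interaction, Il1a -0.12 for diet in meKO and -0.076 for averaged genotype, and Csf1 0.079 for averaged genotype. With library totals Il18 gave -0.011 for genotype on chow, Igf1 -0.016 for diet in meKO and Il1b -0.051 for averaged diet. With voom, Tgfb1 gave -0.015 for genotype on HFD, Tnf -0.061 for diet in WT, and Vegfa 0.17 and Igf1 -0.042 for diet in meKO.

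Leaving out 1 library in turn gave ranges that crossed 0 as follows. For genotype on chow they were Il1b -0.61 to 0.034, Il1rn -0.27 to 0.085, Il18 -0.067 to 0.26 and Tgfb1 -0.16 to 0.0066. For genotype on HFD it was Tgfb1 -0.12 to 0.20. For diet in WT they were Tnf -0.22 to 0.52 and Il1b -0.081 to 0.36. For diet in meKO they were Il1b -0.42 to 0.22, Il1a -0.11 to 0.23, Vegfa -0.34 to 0.26 and Igf1 -0.16 to 0.41. For the interaction they were Tnf -0.080 to 0.67, Il1b -0.52 to 0.13 and Tgfb1 -0.019 to 0.31. For averaged diet it was Il1b -0.16 to 0.16. For averaged genotype they were Il1a -0.040 to 0.14, Il1rn -0.0096 to 0.25, Il18 -0.14 to 0.051, Tgfb1 -0.11 to 0.042 and Csf1 -0.072 to 0.046.

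The number of all genes called moved too. For diet in WT it was 2634, and 1555 after the length and GC correction, 6384 with voom and 96 to 4921 on leaving out 1 library. For averaged diet it was 3721, with 6264 by voom and 1957 to 5326. For diet in meKO it was 13 (DESeq2 227, voom 522), for genotype on chow 10 (591 and 4078), on HFD 10 (53 and 144), averaged 21 (366 and 3843), and for the interaction 2 (15 and 393).

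No paired analysis was possible because the labels give no replicate numbers shared between groups. Tnf, Il1b and Csf1 had 64 to 205 counts per library, which limits the precision of their values.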
